A study of Mus musculus with 6 samples.

Results

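Mitochondrial ribosomal protein genes were taken as the protein-coding genes of the GENCODE M21 annotation whose symbol starts with Mrpl or Mrps followed by a number. There were 78 such genes among 21815 protein-coding genes and 54356 genes of all kinds in the data, 49 with an Mrpl symbol and 29 with an Mrps symbol. They lie on 17 chromosomes, with 11 on chromosome 11 and 8 on chromosome 17. The samples were whole epididymal white adipose tissue (eWAT, the fat depot along the epididymis) from male wild-type C57BL/6N mice of 20 weeks, 1 library per mouse, made from poly(A) RNA with paired reads of 50 nt that keep the strand. The ctrl group was mice 5, 6 and 10 and the cold group mice 7, 12 and 16. The labels describe 24 h of single housing at 4 °C in the same words for all 6 mice and general housing at 22 to 24 °C. The temperature of the ctrl mice during those 24 h is therefore not given on its own.

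Mammalian mitochondria carry their own ribosome, the mitoribosome, which translates the 13 proteins encoded by mitochondrial DNA, all of them subunits of the respiratory chain or of ATP synthase. Its RNAs come from mitochondrial DNA, while all its proteins are encoded in the nucleus, made in the cytosol and imported. Some of these proteins have a counterpart in bacterial ribosomes and others exist only in mitochondria. In brown fat, cold is known to raise mitochondrial content and respiratory capacity. White fat of the epididymal depot is known to respond to cold much less.

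Library depth ranged from 19735167 to 28608052 estimated counts. Levels are given as CPM, the counts of a gene scaled to library size, or, where genes are compared with each other, as TPM, which is also scaled for transcript length. Defining markers of the adipocyte were abundant, at 48379 to 54119 CPM summed over 12 genes in ctrl and 48019 to 51648 CPM in cold. Of these 12 genes, only 2, Lep and Fabp4, had a fold change above 0, and the median log2 fold change was -0.06. Some of the other markers moved with the groups. For 13 genes of the epithelium of the reproductive tract, the summed level was 21.2 to 72.3 CPM in ctrl and 199 to 339 CPM in cold. Of these 13, 6 were called higher (adjusted p under 0.05 in edgeR), beside 2.89% of all genes called in either direction. DESeq2 called 12 of them, beside 6.51% of all genes. For 15 genes of the motile cilium, the summed level was 10.9 to 39.7 CPM in ctrl and 81.1 to 236 CPM in cold. Of these 15, 4 were called higher by edgeR and 10 were called by DESeq2. All 15 were higher in cold without overlap between groups, as were 12.7% of all genes tested. For 9 macrophage markers the summed level was 1088 to 1239 CPM in ctrl and 802 to 1390 CPM in cold, with 0 called by edgeR (0 at an unadjusted p under 0.05) and 0 by DESeq2. For 8 brown adipocyte markers it was 13.8 to 17.9 CPM in ctrl and 22.2 to 25.1 CPM in cold, without overlap. All 6 of these that could be tested had fold changes above 0 (median log2 0.35), beside 47.6% of all genes tested, and 2 had an unadjusted p under 0.05 in edgeR. Of the 6, edgeR called 1, Dio2, and DESeq2 called 2, Dio2 and Ppargc1a. The defining markers Ucp1 and Elovl3 were too low to test. None of these edgeR calls was made without ctrl mouse 6, ctrl mouse 10 or cold mouse 12, when edgeR called no gene of any kind. On the first principal component, with 62.8% of the variance, mouse 5 of ctrl and mouse 7 of cold lay nearest the other group. The part of these shifts in the results below was not tested. Leaving out a library does not test it, because the epithelial, ciliary and brown adipocyte sums stay apart between groups in each such run. Fewer cells of a type and less RNA per cell cannot be told apart in whole tissue.

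All 78 genes were expressed in every library and all passed the filter on low counts. Per transcript length, the mean level over the 6 libraries ran from 8.35 to 226.4 TPM, with a median of 55.0 TPM. Of the 78 genes, 39 lay between 50 and 100 TPM, 9 lay over 100 TPM and 9 under 20 TPM. The small-subunit protein gene Mrps21 (bS21m) had the highest level, at 234, 218 and 221 TPM in ctrl mice 5, 6 and 10 and 249, 211 and 226 TPM in cold mice 7, 12 and 16. Next came Mrpl17 (bL17m, at the exit tunnel) at 187.6 TPM, Mrps6 (bS6m) at 153.5 TPM, Mrpl33 (bL33m) at 149.7 TPM and Mrpl52 (mL52) at 149.4 TPM. Mrps6 overlaps Slc5a3 on the same strand (1150.4 counts per library on average), so reads of this pair may be shared. The ranges of the last 3 genes over libraries overlapped, so their order among themselves is not resolved. At the low end, Mrpl19 (bL19m) had a mean of 8.35 TPM, Mrpl23 (uL23m, at the exit tunnel) 8.69 TPM, Mrpl1 (uL1m, of the L1 stalk) 9.74 TPM, Mrpl47 (uL29m) 14.7 TPM and Mrpl35 (bL35m) 15.8 TPM. The ranges of the first 3 over libraries overlapped too. Although their products enter one particle, the TPM of the genes thus spanned 27.1-fold from lowest to highest. The leading transcript models of Mrps21, Mrpl17, Mrpl33 and Mrpl52 have 418 to 488 nt, and that of Mrps6 has 846 nt. Those of Mrpl19 and Mrpl1 have 5000 and 3431 nt, and those of Mrpl23, Mrpl47 and Mrpl35 have 523 to 707 nt. The part of the scaling for length in this span was not tested.

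**Figure D1:**
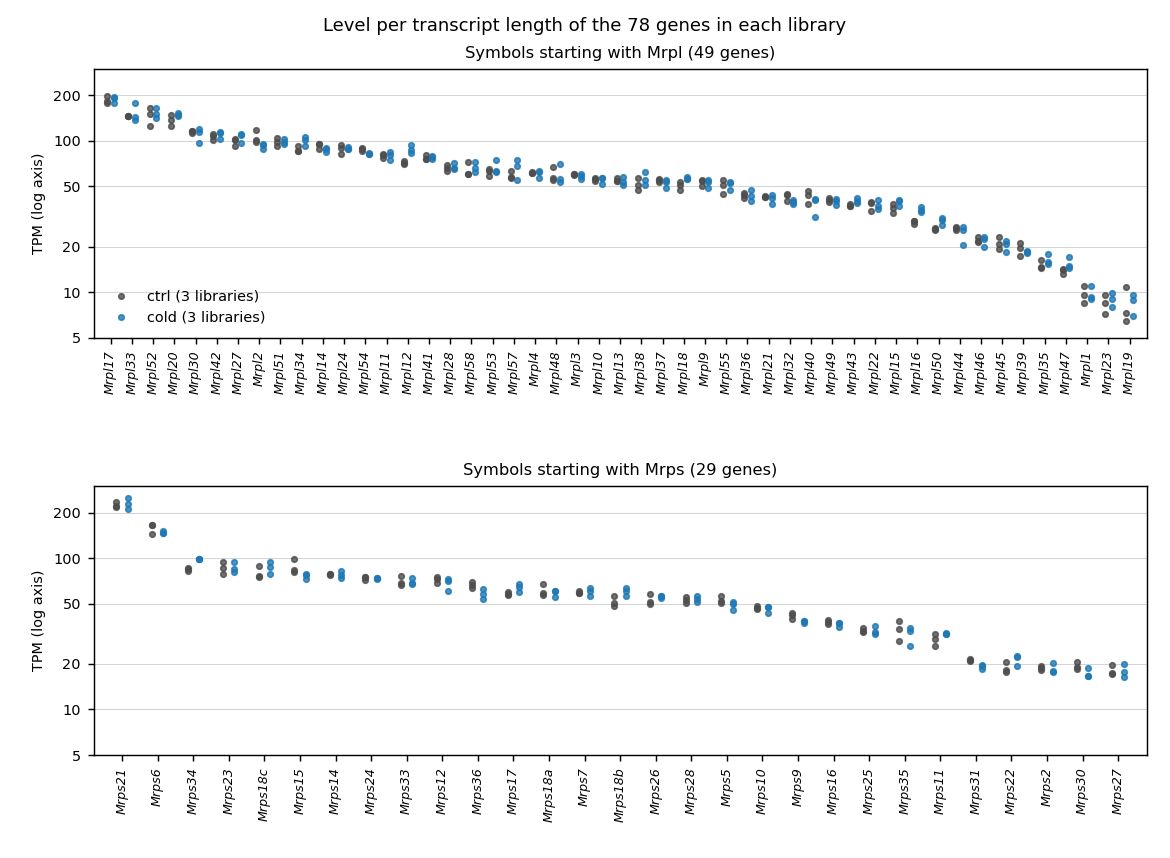
TPM (log axis) of each of the 78 genes in each of the 3 ctrl (grey) and 3 cold (blue) libraries, ordered by mean level within Mrpl and Mrps symbols. Levels run from Mrpl19 at a mean of 8.35 TPM to Mrps21 at 226.4 TPM, while the 6 libraries of a gene lie close together.

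The level of Mrpl23 depends on how reads were shared with a copy. Mrpl23-ps1, a processed pseudogene (an intronless copy of an mRNA) at chromosome 2, 74591330 to 74591909 (GRCm38), has a transcript of 580 nt, and 540 nt of it align to the Mrpl23 transcript at 100% identity. The files assign 91 to 152 estimated counts per library to Mrpl23 and 429 to 636 to the pseudogene. Mrpl23 thus held 15.8 to 21.9% of the counts of the pair. Both together reached 28.3 ± 2.68 CPM in ctrl and 28.4 ± 1.18 CPM in cold (SD, n = 3 each), and their summed TPM was 102.5, against 8.69 TPM for Mrpl23 alone. The low rank of Mrpl23 is therefore uncertain. Annotated pseudogenes of other members (Mrps36-ps1, Mrps36-ps2, Mrps36-ps3 and Mrpl48-ps) held at most 3.54 counts in any library.

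The first comparison asked whether the level of these genes differed between cold and ctrl mice. None of the 78 genes was called at an adjusted p under 0.05 (quasi-likelihood test of edgeR, Benjamini-Hochberg adjusted over 17852 genes). Over all genes tested, 2.89% were called. DESeq2 called 1 of the 78, Mrpl12, beside 6.51% of all genes it tested. At an unadjusted p under 0.05, 7 of 78 genes (8.97%) were higher in cold and 0 lower, beside 10.6% higher and 6.99% lower over all genes tested. Every cold library lay above every ctrl library for 13 genes (16.7%), where all genes tested gave 12.7%. Every cold library lay below for 5 genes (6.41%), where all genes gave 11%. The shares higher in cold are close to the background. Beside genes described below, the 13 were Mrpl18 (0.13), Mrpl19 (0.12), Mrpl15 (0.12), Mrps23 (0.10), Mrpl38 (0.09) and Mrps16 (0.05), and the 5 included Mrpl21 (-0.09) and Mrps5 (-0.08), with log2 fold changes in brackets; these were named after their values were seen.

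The fold changes were small. On the log2 scale they ran from -0.20 (Mrps15) to 0.32 (Mrpl12), with 54 of 78 within 0.1 of 0 and 70 within 0.2. The median was 0.03, beside -0.01 over all genes tested, and 49 of 78 values (62.8%) were above 0, beside 47.6% of all genes tested. The standard errors ran from 0.07 to 0.19, with a median of 0.08. The 95% confidence interval lay within a 1.5-fold change in either direction for all 78 genes and within 1.2-fold for 39. The median SD of log2 CPM within groups was 0.09 for these genes and 0.16 for all genes tested.

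**Figure D2:**
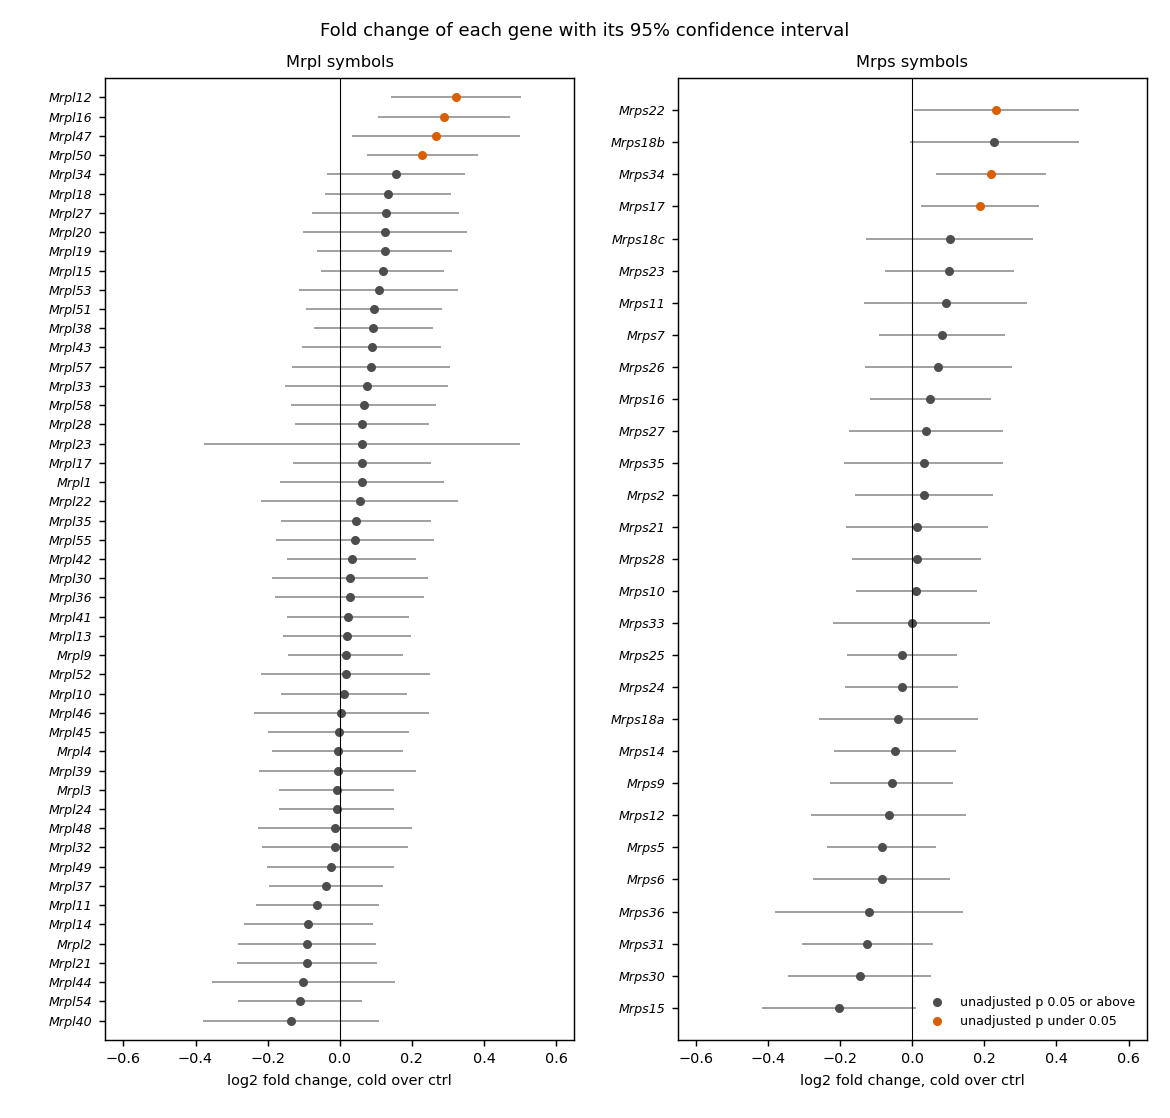
Log2 fold change, cold over ctrl, of each gene (points) with its 95% confidence interval (lines) from the edgeR fit, Mrpl symbols on the left and Mrps symbols on the right. The 7 orange points have an unadjusted p under 0.05, and all of them lie above 0.

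Mrpl12 encodes bL12m, the protein of the flexible stalk that recruits translation factors to the ribosome; it is also known to bind the mitochondrial RNA polymerase. Its level was 58.7, 62.4 and 59.0 CPM in ctrl mice 5, 6 and 10 and 80.1, 68.5 and 76.6 CPM in cold mice 7, 12 and 16. All 3 cold libraries lay above the 3 ctrl libraries. The log2 fold change was 0.32 (SE 0.08), with an edgeR adjusted p of 0.0702. This gene crosses the threshold under other settings: the adjusted p was 0.0217 by DESeq2, which calls 6.51% of all genes, and 0.0490 in edgeR with no filter on low counts, which calls 2.65%. Over all alternatives its adjusted p ranged from 0.0217 to 0.2498.

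Mrpl16 encodes uL16m, a protein near the peptidyl transferase centre, where peptide bonds form. Its values were 20.8, 21.3 and 20.3 CPM in ctrl and 25.8, 24.0 and 26.5 CPM in cold, without overlap. The log2 fold change was 0.29 (SE 0.08) and the edgeR adjusted p 0.0970. Mrpl47 (uL29m, beside the mouth of the exit tunnel) was at 11.8, 12.7 and 12.4 CPM in ctrl and 14.97, 15.6 and 13.9 CPM in cold, a log2 fold change of 0.27 (SE 0.10, edgeR adjusted p 0.216). Mrpl50 (mL50, found only in mitochondria) was at 34.4, 35.5 and 34.6 CPM in ctrl and 40.0, 41.4 and 41.0 CPM in cold, a log2 fold change of 0.23 (SE 0.07, edgeR adjusted p 0.115). The groups did not overlap for either gene, and the spread of Mrpl50 within groups was under 1 CPM (SD 0.618 in ctrl and 0.712 in cold).

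In the small subunit, Mrps22 (mS22, in which human mutations cause mitochondrial disease) was at 14.5, 13.4 and 12.6 CPM in ctrl and 16.0, 16.4 and 15.3 CPM in cold, with a log2 fold change of 0.23 (SE 0.10, edgeR adjusted p 0.272). Mrps18b (mS40) had the same fold change of 0.23 (SE 0.10), but its groups overlapped: 25.4, 30.8 and 27.3 CPM in ctrl and 29.8, 32.4 and 35.5 CPM in cold. Mrps34 (mS34) was named after its values were seen, as the 1 gene at an unadjusted p under 0.05 outside the naming rule. It was at 51.2, 52.3 and 48.2 CPM in ctrl and 59.2, 59.1 and 58.4 CPM in cold, a log2 fold change of 0.22 (SE 0.07, edgeR adjusted p 0.123). Mrps34 overlaps Nme3 on the same strand (399 counts per library on average), so the 2 genes' reads may be shared. Mrps17 (uS17m, which binds the small-subunit RNA) was at 34.0, 35.0 and 34.7 CPM in ctrl and 41.3, 39.0 and 37.8 CPM in cold, with a log2 fold change of 0.19 (SE 0.07).

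At the low end, Mrps15 encodes uS15m, which binds the small-subunit RNA. It was at 51.3, 44.0 and 43.7 CPM in ctrl and 38.1, 39.0 and 43.6 CPM in cold. The groups nearly overlapped, with the lowest ctrl library at 43.7 and the highest cold library at 43.6 CPM, and the log2 fold change was -0.20 (SE 0.09, unadjusted p 0.0588, edgeR adjusted p 0.312). Mrps31 (mS31) was at 20.5, 21.8 and 20.8 CPM in ctrl and 18.9, 19.4 and 19.6 CPM in cold, and Mrpl54 (mL54) at 27.2, 29.4 and 29.3 CPM and 27.0, 26.0 and 26.6 CPM. Neither overlapped between groups, with log2 fold changes of -0.12 (SE 0.08) and -0.11 (SE 0.07). Mrps30, Mrpl40 and Mrps36 had log2 fold changes of -0.15, -0.14 and -0.12, with groups that overlapped. These 3 and Mrps15 moved by over 1.5 times with 1 library left out: Mrps15 to -0.11 without ctrl mouse 5, Mrps30 to -0.07 without ctrl mouse 6, and Mrpl40 to -0.06 without cold mouse 7. Mrps36 ranged from -0.05 without cold mouse 7 to -0.24 without cold mouse 16 (edgeR unadjusted p 0.0486, adjusted p 0.330). With every library kept, all 6 had edgeR adjusted p-values between 0.312 and 0.668.

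**Figure D3:**
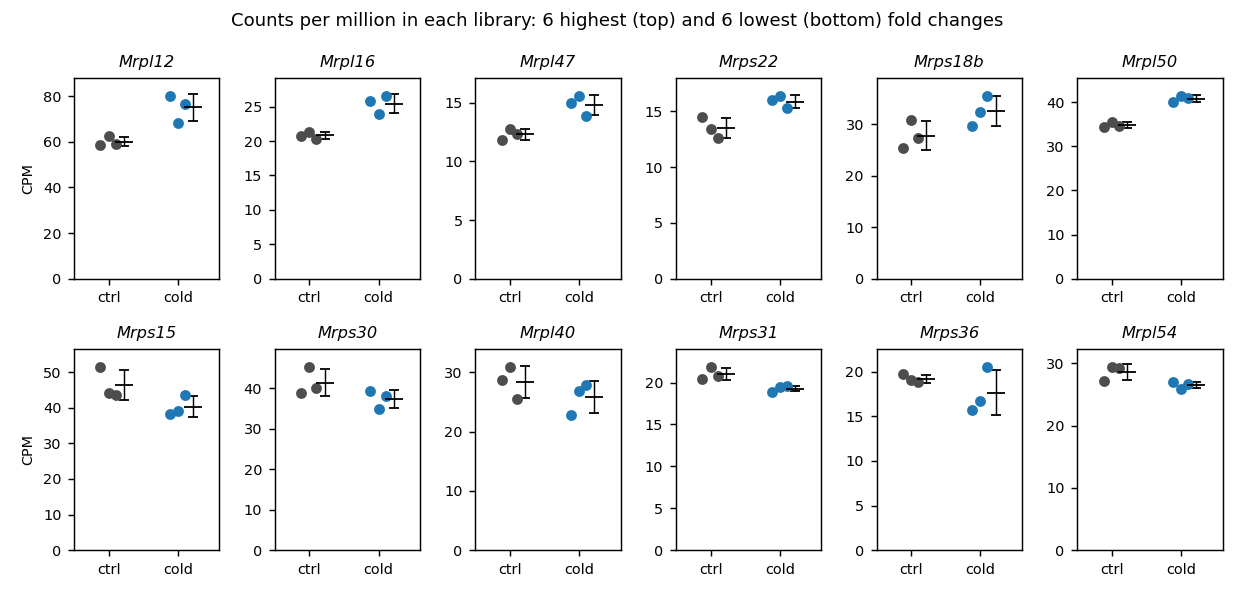
CPM in each library (points) with mean and SD (n = 3 per group) for the genes with the 6 highest (top row) and the 6 lowest (bottom row) fold changes; axes start at 0. The groups are apart for Mrpl12, Mrpl16, Mrpl47, Mrps22 and Mrpl50 and overlap for Mrps18b.

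By place in the particle, no site stood together on 1 side. In the stalk and GTPase centre, where translation factors act, Mrpl12 had the highest value and Mrpl54 the lowest, at -0.11. Between them lay Mrpl11 (-0.06), Mrpl10 (0.01) and Mrpl53 (0.11), and the median of the 5 was 0.01. Mrpl53 overlaps Gm42688 on the same strand (212 counts per library on average). Among 4 genes around the peptidyl transferase centre, Mrpl16 was at 0.29 and Mrpl27 at 0.13, while Mrpl2 was at -0.09 and Mrpl3 at -0.01. For 6 exit tunnel genes the median was 0.06 (range -0.01 to 0.27). For 6 genes of the central protuberance it was 0.04 (-0.14 to 0.13). For 4 genes of the decoding region and the mRNA entry it was -0.05 (-0.08 to 0.08). Proteins with a bacterial counterpart (46 genes) had a median of 0.03 and those found only in mitochondria (31 genes) 0.02. None of these values was tested as a group.

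Gene symbols do not always give the subunit. Mrps30 (mL65) and Mrps18a (mL66) carry small-subunit names but sit in the large subunit. Mrps18a, Mrps18b and Mrps18c are 3 relatives of bacterial S18. They had mean levels of 59.8, 55.9 and 83.2 TPM and log2 fold changes of -0.04, 0.23 and 0.10, and none was called. Mrps36 is now known as a subunit of the 2-oxoglutarate dehydrogenase complex and is in neither subunit. Its level was 19.7, 19.04 and 18.8 CPM in ctrl and 15.8, 16.8 and 20.5 CPM in cold. Mrpl58 (mL62, also known as ICT1) is a peptidyl-tRNA hydrolase built into the large subunit. It was at 28.2, 27.5 and 27.3 CPM in ctrl and 28.1, 26.9 and 32.0 CPM in cold, a log2 fold change of 0.07 (SE 0.09).

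The summed level asked whether the subunits kept step. The 78 genes together reached 2686, 2793 and 2660 CPM in ctrl and 2776, 2700 and 2863 CPM in cold, and the groups overlapped. Their share of all counts was 0.263 to 0.287% over the 6 libraries. The 49 Mrpl genes summed to 1704 ± 44.4 CPM in ctrl and 1761 ± 57.4 CPM in cold, and the 29 Mrps genes to 1009 ± 26.5 and 1018 ± 24.1 CPM (SD, n = 3 each). On the TPM scale the Mrpl sum was 1.02 times and the Mrps sum 0.997 times that of ctrl, so the sign of the small-subunit difference changes with the scale.

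The ratio of the Mrpl sum to the Mrps sum was 1.697, 1.688 and 1.684 in ctrl and 1.726, 1.717 and 1.748 in cold, on the CPM scale. The groups did not overlap, at means of 1.690 ± 0.00635 and 1.730 ± 0.0157 (SD, n = 3 each), a difference of 2.39%. On the TPM scale they were 1.709 ± 0.0195 and 1.748 ± 0.0206, again without overlap. With genes placed by structure the CPM ratio was 1.936, 1.936 and 1.943 in ctrl and 1.959, 1.936 and 1.990 in cold, and the groups overlapped. The separation was thus not seen once the 3 genes whose symbol and place differ, Mrps30, Mrps18a and Mrps36, were placed by structure. All 3 had log2 fold changes below 0. No test was made of these sums.

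**Figure D4:**
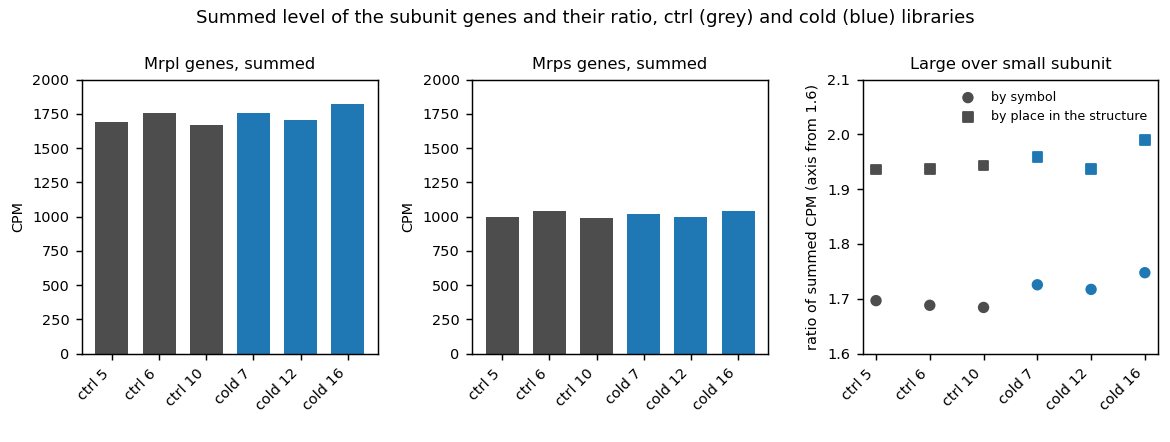
Summed CPM of the 49 Mrpl and 29 Mrps genes in each library (bars from 0) and the ratio of large to small subunit (points, axis from 1.6), by symbol (circles) and by place in the structure (squares). By symbol the cold libraries lie between 1.717 and 1.748 and the ctrl libraries between 1.684 and 1.697; by structure they overlap.

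Related protein families are given side by side. Of 84 cytosolic ribosomal protein genes, which build the ribosomes of the cytosol, 81 were tested and 0 called by edgeR. DESeq2 called 2, Rpl5 and Rps6, beside 6.51% of all genes it tested. The median log2 fold change of the family was 0.10, with 76 of 81 above 0 (93.8%, beside 47.6% of all genes tested). At an unadjusted p under 0.05 in edgeR, 8 were higher in cold and 0 lower, beside 10.6% and 6.99% of all genes tested. Every cold library lay above every ctrl library for 25 of the 81 and below for 0, beside 12.7% and 11% of all genes tested. Of 86 nuclear genes for the respiratory chain and ATP synthase, which include the partners of the proteins that mitoribosomes make, 82 were tested and 0 called by edgeR or DESeq2. Their median was 0.06, with 64 of 82 above 0 and 3 at an unadjusted p under 0.05. The differences between the families were not tested.

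Genes that work with the mitoribosome were not called either by edgeR in any of the next 7 lists, and DESeq2 called only Ppargc1a among them. The 5 mitoribosomal proteins with other symbols had a median log2 fold change of 0.09 and 0 at an unadjusted p under 0.05, with Chchd1 at 0.14 and Gadd45gip1 at 0.09. Of 28 assembly factors, 1 was higher and 1 lower at an unadjusted p under 0.05: Trub2, a pseudouridine synthase, at 0.27 (SE 0.08) and Dhx30, an RNA helicase, at -0.17 (SE 0.07). Of 18 translation factors, Qrsl1, a subunit of the amidotransferase that makes glutaminyl-tRNA, was at 0.49 (SE 0.17) and Mrrf, the ribosome recycling factor, at -0.25 (SE 0.07). Their edgeR adjusted p-values were 0.176 and 0.124. Of 17 aminoacyl-tRNA synthetases, none had an unadjusted p under 0.05, and Ears2 (glutamyl-tRNA) at -0.25 and Nars2 (asparaginyl-tRNA) at 0.15 had the smallest p-values. Of 21 genes of mitochondrial transcription and mRNA handling, 3 were higher and 1 lower at that level, led by the RNA helicase gene Supv3l1 at 0.24 (SE 0.08) and by Tbrg4, of the FASTK family of mitochondrial RNA proteins, at 0.25 (SE 0.09). The median of that list was 0.12.

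Of 13 upstream regulators, Ppargc1a, the coactivator that drives mitochondrial biogenesis, was at 5.86, 4.43 and 4.67 CPM in ctrl and 8.01, 9.75 and 7.19 CPM in cold. Its groups did not overlap, and the log2 fold change was 0.74 (SE 0.18, edgeR adjusted p 0.0738). Atf4, a stress response factor, was at 0.18 (SE 0.07, edgeR adjusted p 0.242). The 13 mRNAs encoded by mitochondrial DNA summed to 37867, 40203 and 41819 CPM in ctrl and 37522, 44341 and 55584 CPM in cold. All 13 fold changes were above 0 (0.13 to 0.29), with none called and 0 at an unadjusted p under 0.05 in edgeR, and cold mouse 16 had the highest sum. Among other markers, the adipocyte genes Lep (0.61, edgeR adjusted p 0.0439) and Cfd (-0.59, 0.0438) and the brown adipocyte gene Dio2 (2.64, 0.0252), which encodes the enzyme that activates thyroid hormone, passed the test. No gene of any kind was called without ctrl mouse 6, ctrl mouse 10 or cold mouse 12, and 3 were called without cold mouse 16.

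The next comparison asked whether the transcript models of a gene shifted. GENCODE M21 lists 343 transcripts for the 78 genes, of which 170 are protein coding, 88 retain an intron, 61 are processed transcripts without a coding frame and 24 are marked for nonsense-mediated decay. Tested one by one, 231 passed the filter and 0 were called by edgeR (smallest adjusted p 0.221), beside 0% of all transcripts tested. At an unadjusted p under 0.05 in edgeR there were 7 (3.03%), all higher in cold, beside 8.15% of all transcripts. DESeq2 called 1 of 319 transcripts of these genes, beside 2.17% of all transcripts it tested. For the share of a transcript within its gene, 195 transcripts of 66 genes were tested with limma. Of these, 0 were called and 3 (1.54%) had an unadjusted p under 0.05. Over all genes limma called 0.00949% of shares, and 4.86% had an unadjusted p under 0.05. The diffSpliceDGE test called 1 of the 195, beside 0.259% of all shares tested. In 74 of 78 genes the same transcript led in all 6 libraries, and in 29 the leading transcript held over 90% of the gene's TPM.

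For 14 genes the leading model by mean share over the 6 libraries was not annotated as protein coding. These shares are Salmon's division of short reads among models of the same gene, and TPM weighs short models more than counts do. They are therefore estimates of the make-up of a gene's RNA. Mrps26 (mS26) had 91.0% of its TPM in a retained-intron model, Mrpl57 (mL63) 88.0% in another, Mrps16 (bS16m) 83.0% in a processed transcript, and Mrps14 (uS14m) and Mrpl32 (bL32m) 80.8% and 78.9% in models marked for decay. For Mrpl32 all models without a plain coding label held 93.8 to 95.9% of the TPM in ctrl and 94.0 to 95.04% in cold. Summed over the 78 genes, protein-coding models held 82.0 ± 0.270% of the TPM in ctrl and 82.2 ± 0.565% in cold (SD, n = 3 each). Retained-intron models held 8.24 ± 0.121% and 8.42 ± 0.428%. Processed transcripts held 4.98, 4.95 and 4.84% in ctrl and 4.39, 4.69 and 4.31% in cold, where the groups did not overlap; this was not tested.

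Mrpl11, for uL11m at the base of the stalk, had the smallest p-value for a share. As a gene it was level, at 37.9, 40.1 and 39.1 CPM in ctrl and 37.8, 35.1 and 39.0 CPM in cold, a log2 fold change of -0.06 (SE 0.07, edgeR adjusted p 0.737). With an offset for transcript length the value was 0.04 (edgeR adjusted p 0.8798). The gene has 5 models on chromosome 19, plus strand, of which Mrpl11-204 led, with 50.4 to 63.6% of the TPM. Exon 2 of Mrpl11-202 starts at 4962900 and that of the other 4 models at 4962879 (GRCm38), so Mrpl11-202 lacks 21 nt, or 7 codons. Mrpl11-205 shares the long exon 2 but starts exon 3 at 4963383 in place of 4963326, and lacks 57 nt, or 19 codons. The mRNA sequence across these joins, read from the annotation's transcripts, shows what tells the models apart. Capitals mark the bases that the short form lacks, with 30 nt on each side.
Mrpl11-204, exon 1 to exon 2: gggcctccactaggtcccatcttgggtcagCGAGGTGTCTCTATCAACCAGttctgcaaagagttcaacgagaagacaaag
Mrpl11-202, exon 1 to exon 2: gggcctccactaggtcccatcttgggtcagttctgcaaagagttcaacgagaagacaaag
Mrpl11-204, exon 2 to exon 3: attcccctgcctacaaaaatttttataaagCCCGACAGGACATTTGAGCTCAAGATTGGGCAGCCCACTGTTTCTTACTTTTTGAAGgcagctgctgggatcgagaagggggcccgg
Mrpl11-205, exon 2 to exon 3: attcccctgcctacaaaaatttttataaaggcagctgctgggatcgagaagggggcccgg

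Mrpl11-202 was listed at 0 estimated counts in all 3 ctrl libraries and at 25.4, 24.1 and 59.5 in cold mice 7, 12 and 16. Its share of the gene's TPM was 0% in each ctrl library and 10.0, 9.68 and 17.9% in cold. With each ctrl library set to a floor of 3 counts, its mean level in cold was 10.0 times that in ctrl. The floor covers counting error only and not the division of reads among models, so this ratio is not a lower bound. Of the gene's counts, the floor is 0.327 to 0.394% in ctrl, where cold had 2.69 to 5.32%. The share did not pass the limma test on the log2 odds of the share (unadjusted p 0.00432, adjusted p 0.939), nor did the transcript pass the edgeR test (adjusted p 0.221). The limma voom diffSplice test gave an adjusted p of 0.313. It was past the threshold by diffSpliceDGE (adjusted p 0.000216), which calls 0.259% of all shares tested, and by DESeq2 as a transcript (adjusted p 0.000167), which calls 2.17% of all transcripts tested. Mrpl11-202 passed the filter on low counts only through the cold libraries, so these p-values are given as a description and support no difference.

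These counts are Salmon's division of short reads among models that share most of their bases, and the model Mrpl11-202, of 363 nt, has no annotated 3′ end. An entry at 0 can therefore be an estimate, not an absence. Mrpl11-205, the other short form, held 25.8, 28.3 and 29.3% in ctrl and 26.4, 19.6 and 24.0% in cold. The leading model Mrpl11-204 was at 63.1, 63.6 and 58.7% in ctrl and 55.3, 62.4 and 50.4% in cold. Both overlapped between groups.

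**Figure D5:**
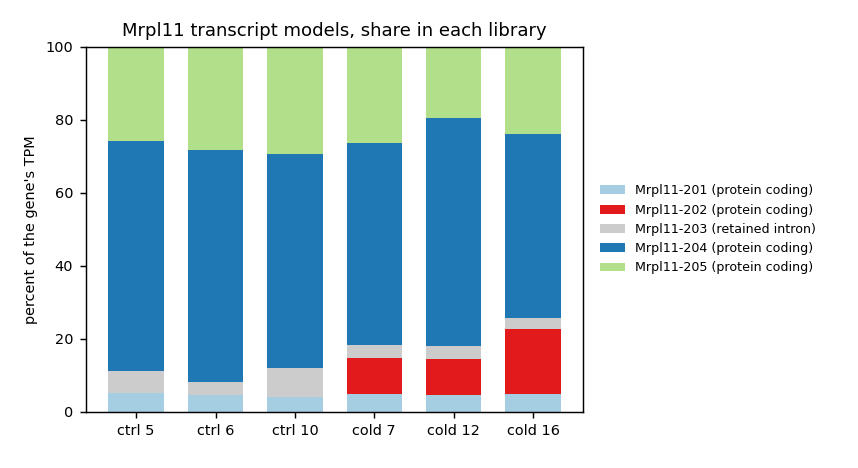
Share of the Mrpl11 TPM held by each of its 5 transcript models in the 3 ctrl and 3 cold libraries (stacked bars, summing to 100%). Mrpl11-202 (red) appears only in the cold bars, at 10.0, 9.68 and 17.9%, and is listed at 0 in ctrl.

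The next shares by p-value were in other genes and mostly in minor models. Mrpl20-204, a processed transcript of Mrpl20 (bL20m), held 14.6, 7.96 and 7.92% in ctrl and 7.40, 2.56 and 3.04% in cold. Mrps36-201, also a processed transcript, held 8.83, 13.4 and 9.34% in ctrl and 0, 4.31 and 2.94% in cold. Neither overlapped between groups, with unadjusted p-values of 0.0364 and 0.0498 and a limma adjusted p of 0.939 each. Mrpl30-206 (Mrpl30, uL30m) had group means of 22.8% in ctrl and 15.5% in cold. Mrps9-201, the leading model of Mrps9 (uS9m), had 70.6 and 77.2%. Neither had an unadjusted p under 0.05. For Mrpl32-204 and Mrps17-204 the groups overlapped.

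The promoters of these genes hold motifs of factors known to act on nuclear genes for mitochondria: NRF1, the ETS factor GABP and YY1. RefSeq windows of 300 bp (GRCm38.p6, 250 bases before to 50 after a start) were found for 69 of the 78 genes, 75 windows in all, and searched on both strands. The NRF1 motif GCGCANGCG was in 21.3% of these windows, beside 8.58% of all windows of protein-coding genes. The ETS motif CCGGAAG was in 34.7% beside 11.6%, and the YY1 motif AANATGGCG in 14.7% beside 3.12%. At least 1 of the 3 was in 43 windows (57.3%), against 20.4% of protein-coding windows. The SP1 motif GGGCGG was in 52.0% beside 46.2%, CCAAT in 40.0% beside 38.2%, and TATAAA in 6.67% beside 12.6%. Windows of these genes were also slightly richer in G and C, with a median of 58.7% against 56.3%, and had 21 CpG against 13, and motif and base composition were not separated.

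Mrpl12 is shown because it had the largest fold change, and Mrpl10 because the gene on its other side passed the test. Capitals mark the NRF1 match, which in both windows is on the complementary strand. A match is letters in a window, not a site shown to be bound. The windows of Mrpl16, Mrpl47, Mrpl50, Mrps17 and Mrpl11 held no NRF1, ETS or YY1 match, and that of Mrps22 held only an ETS match. Whether the motifs go with the fold changes was not tested.
Mrpl12, chr11:120484387-120484686, plus strand: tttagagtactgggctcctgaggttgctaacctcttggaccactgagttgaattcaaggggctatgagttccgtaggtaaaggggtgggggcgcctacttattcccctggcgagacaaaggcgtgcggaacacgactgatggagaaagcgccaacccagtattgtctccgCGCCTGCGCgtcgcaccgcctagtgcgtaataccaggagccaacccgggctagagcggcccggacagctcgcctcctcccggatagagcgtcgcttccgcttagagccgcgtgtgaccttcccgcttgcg
Mrpl10, chr11:97041332-97041631, plus strand: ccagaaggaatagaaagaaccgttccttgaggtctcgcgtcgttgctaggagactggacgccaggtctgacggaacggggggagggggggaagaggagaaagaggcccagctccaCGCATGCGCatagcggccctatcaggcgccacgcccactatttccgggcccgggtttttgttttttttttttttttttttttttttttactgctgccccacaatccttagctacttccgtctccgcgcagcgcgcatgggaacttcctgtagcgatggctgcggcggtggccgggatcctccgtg

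Many of these genes share their start region with another gene. A protein-coding gene on the opposite strand started within 1000 bp for 33 of 78 genes (42.3%), against 10.9% of all protein-coding genes, and for 21 of these 33 genes the starts lay within 200 bp. Mrpl54 and Apba3 start 26 bp apart, and Mrpl46 and Mrps11, both mitoribosomal, 412 bp apart. Of 32 partners tested, 1 was called, beside 2.89% of all genes tested: Lrrc46, which starts 153 bp from Mrpl10. Lrrc46 was at 0.372, 0.402 and 0.0513 CPM in ctrl and 3.28, 3.89 and 1.75 CPM in cold, a log2 fold change of 3.37 (SE 0.56, edgeR adjusted p 0.0314; not called without ctrl mouse 6, ctrl mouse 10 or cold mouse 12). Mrpl10 (uL10m, of the stalk base) was at 59.1, 58.3 and 59.0 CPM in ctrl and 59.7, 54.5 and 63.7 CPM in cold, a log2 fold change of 0.01 (SE 0.08). The markers of the motile cilium were higher in the same cold libraries (81.1 to 236 CPM against 10.9 to 39.7 CPM), and their part in the Lrrc46 value was not tested. Pnpla7, which starts 935 bp from Mrpl41, had the next smallest p-value and was lower in cold. It was at 46.9, 40.7 and 45.2 CPM in ctrl and 36.0, 34.5 and 32.3 CPM in cold, without overlap. Its log2 fold change was -0.37 (SE 0.08, edgeR adjusted p 0.0594), while Mrpl41 was at 0.02. Oaz3, which starts 597 bp from Mrpl9 with both genes overlapping, was at 0.578, 1.30 and 0.770 CPM in ctrl and 6.74, 4.33 and 1.12 CPM in cold. Its edgeR adjusted p was 0.147, while Mrpl9 (bL9m) had a log2 fold change of 0.02 (SE 0.07).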

How the data were processed

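The submitters' processing notes name Salmon, cutadapt, bcl2fastq and GRCm38; versions are not stated there. For each library the authors deposited a Salmon table of 140658 transcripts with estimated counts, TPM (scaled for length and depth), lengths and effective lengths, per the file headers. Transcripts were matched to GENCODE M21 (140137 matched; the other 521, with 0.124 to 0.394% of a library's counts, were left out), and estimated counts were summed per gene and rounded.

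Genes and transcripts were tested with edgeR 4.0.16 in R 4.3.3 (filterByExpr with a minimum count of 10, TMM, robust quasi-likelihood F-test, two-sided, no covariate) and shares with limma 3.58.1 on log2 odds with a pseudocount of 0.5, all adjusted by the Benjamini-Hochberg method over all features tested. Alternatives included DESeq2 1.42.0, other scalings, no filter, other share tests and leaving out each library. An exact permutation test of 3 against 3 libraries cannot go below 0.1. CPM are TMM-scaled. Each library is 1 mouse. The deposited TPM were used for levels and shares and not tested. Floors cover counting error only. The code was tested on simulated counts. The members and gene lists were chosen with earlier results of these data known, and the structural sites, motifs and neighbouring genes after values were seen. Named genes were Mrpl11, called members, the 6 highest and 6 lowest fold changes, the 5 highest and 5 lowest levels, the 8 smallest share p-values (1 of these is not reported here), 7 genes of known place or role, and from other lists the called genes and the 2 smallest p-values. Of the epithelial and ciliary markers, only counts and sums are given.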

Additional observations from a re-analysis of the deposited data

How the results depend on the processing

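Without a filter on low counts 1 of the 78 genes was called, and by DESeq2 1, in both cases Mrpl12 (log2 fold changes 0.32 and 0.33; adjusted p 0.0490 and 0.0217). By DESeq2 1 transcript was called and by diffSpliceDGE 1 share, in both cases Mrpl11-202, which passed the filter only through the cold libraries. RLE scaling, the length offset and leaving out any 1 library gave 0 called genes, but without ctrl mouse 6, ctrl mouse 10 or cold mouse 12 the fit called 0 of all genes and without cold mouse 16 it called 3, so those runs say nothing about stability. Without ctrl mouse 5 and cold mouse 7 together, an alternative chosen after seeing the data, 0 of the 78 were called and 1230 of all genes. The median log2 fold change ranged from 0.00125 (without cold mouse 16) to 0.0637 (without cold mouse 12) over the runs that leave out 1 library, and 41 to 54 of 78 values were above 0. The length offset turned the Mrpl11 value from -0.06 to 0.0447; the cause was not tested. Genes called overall moved from 516 to 924 with no filter, 1430 by DESeq2 and 0 to 1090 over the runs that leave out 1 library. No paired analysis was possible because the mouse numbers of the groups differ. Counts of 91 to 2216 per gene and library limit the smallest genes most. The widest interval was that of Mrpl23, whose reads are also divided with its pseudogene, and the cause of that width was not tested.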
